A study of Mus musculus with 15 samples.

Results

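Glutathione, thioredoxin and antioxidant genes were followed in the ventricles of mice in which the RNA-binding protein Celf1 was switched on in heart muscle. The members were the rows of the deposited gene table whose symbol names a glutathione transferase, a microsomal glutathione transferase, a peroxiredoxin, a thioredoxin or thioredoxin-like gene, a glutathione peroxidase or a superoxide dismutase, together with Nqo1, Gclc, Gclm, Gsr, Gss, Srxn1, Cat, Dcxr, Nfe2l2 and Keap1. They came to 74 of the 16042 genes in the table. They were picked by symbol, but earlier results of these data were known when the rule was set. Expression was given as RPKM, the reads of a gene scaled to its length and to the depth of its library. Of the 74 members, 67 had a mean of at least 1 RPKM over the mice and were tested.

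The induced mice carried 2 transgenes, MHCrtTA and TRECUGBP1. The first places the doxycycline-dependent activator rtTA under the alpha-myosin heavy chain promoter, which is active in heart muscle cells, and the second holds Flag-tagged human Celf1 (LYLQ isoform) behind a tetracycline-responsive promoter. They received doxycycline for 12 hours, 24 hours, 72 hours or 7 days, with 3 mice at each time, and the 3 control mice carried MHCrtTA alone and received it for 72 hours. The mice were 20 to 22 weeks old, went without food for 2 to 3 hours and then ate chow with doxycycline at 2 g per kg. Polyadenylated RNA came from the ventricles, from which the tip of the apex had been cut away. Every animal, controls included, therefore had both rtTA and doxycycline, and only the 72 hour group matched the controls in time on the drug.

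Glutathione is a tripeptide thiol made in 2 steps, by the glutamate-cysteine ligase that Gclc and Gclm form and by the synthetase Gss, and it is kept reduced by Gsr with electrons from NADPH. Glutathione peroxidases use it to reduce peroxides and glutathione transferases attach it to reactive compounds, while thioredoxins, which thioredoxin reductases recharge, supply electrons to the peroxiredoxins. Superoxide dismutases and catalase act without thiols. The transcription factor NRF2, encoded by Nfe2l2 and held in check by Keap1, turns on many of these genes through the antioxidant response element. Heart muscle is rich in mitochondria, which carry a thioredoxin, a thioredoxin reductase, peroxiredoxins and a superoxide dismutase of their own.

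The core letters of the antioxidant response element, TGACNNNGC on either strand, were looked up in the 300 bases around gene starts of RefSeq (build GRCm38.p6, 250 bases before the start and 50 after it). RefSeq promoters were found for 64 members. The letters stood in 15 of their 84 promoters (17.9%) and in 4071 of 32851 promoters of all genes (12.4%). The 4 stretches given here belong to members that changed after induction and lie before the gene start, with the matched letters in capitals. They were picked by the direction of the genes in these data. Gclm and Txnrd1 were higher at both 72 hours and 7 days and Mgst1 was higher at 7 days, whereas Gstm7 was lower at 7 days. Their opposite directions were thus set by the choice. The letters also lay before the starts of other members that are not shown, among them Gstm5, Nfe2l2, Prdx1, Sod1 and Txndc5.
Gclm, chr3:122245413-122245441, plus strand: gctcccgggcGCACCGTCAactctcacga
Txnrd1, chr10:82859104-82859132, plus strand: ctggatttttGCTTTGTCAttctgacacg
Mgst1, chr6:138140461-138140489, plus strand: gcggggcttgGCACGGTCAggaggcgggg
Gstm7, chr3:107931725-107931753, minus strand: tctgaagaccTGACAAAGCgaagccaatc
The match began 134 bases before the gene start in Gclm, 92 in Txnrd1, 56 in Mgst1 and 129 in Gstm7. A match of letters is a description of the sequence and not evidence of a bound factor.

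The RNA of Celf1 (listed as Cugbp1) was at 351, 220 and 345 RPKM at 12 hours, 416, 423 and 295 RPKM at 24 hours, 179, 181 and 159 RPKM at 72 hours and 29.5, 30.9 and 37.9 RPKM at 7 days, against 33.8, 36.1 and 33.3 RPKM in controls. It was thus above every control at the first 3 times and at the control level at 7 days. An exact two-sided permutation test gave p = 0.1 at 12, 24 and 72 hours, the smallest that 3 mice against 3 allow, and p = 0.5 at 7 days. The read depth behind the columns, estimated from the RPKM that a single read is worth, ran from 16500000 to 52200000 reads, with a median of 25200000 reads. The columns carried 9 codes with no stated meaning. All 3 controls shared their code with the 72 hour mouse A3278 and with no other mouse, and the codes of the 24 hour mice occurred in no other group, so that code and group cannot be told apart at 24 hours. Genes were tested with limma on log2(RPKM + 1) over all 15 mice and 10868 genes, and "higher" or "lower" below means a Benjamini-Hochberg adjusted p under 0.05. Differences are given on that log2 scale as induced minus control with the standard error of the fit, which understates the change of genes near 1 RPKM.

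Marker genes showed how the tissue itself differed. The summed RPKM of 7 heart muscle genes was 10390 to 11090 at 7 days, against 37490 to 39940 in controls, and 6 of the 7 were lower. Fibroblast markers summed to 1978 to 2653 RPKM at 7 days, against 510 to 591 RPKM in controls (6 of 7 higher), and macrophage markers to 380 to 584 RPKM, against 81.6 to 110 RPKM (7 of 7 higher). At 72 hours heart muscle markers summed to 23910 to 32980 RPKM (1 of 7 lower), and none of the fibroblast or macrophage markers passed the test. Endothelial markers summed to 146 to 175 RPKM at 7 days, against 199 to 216 RPKM in controls (4 of 6 lower). Atrial markers summed to 12.1 to 67.0 RPKM at 72 hours and 28.9 to 46.5 RPKM at 7 days, against 65.5 to 78.7 RPKM in controls. In bulk tissue, fewer cells of a type and less RNA per cell cannot be told apart, and what part these shifts have in the values below was not tested.

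**Figure D1:**
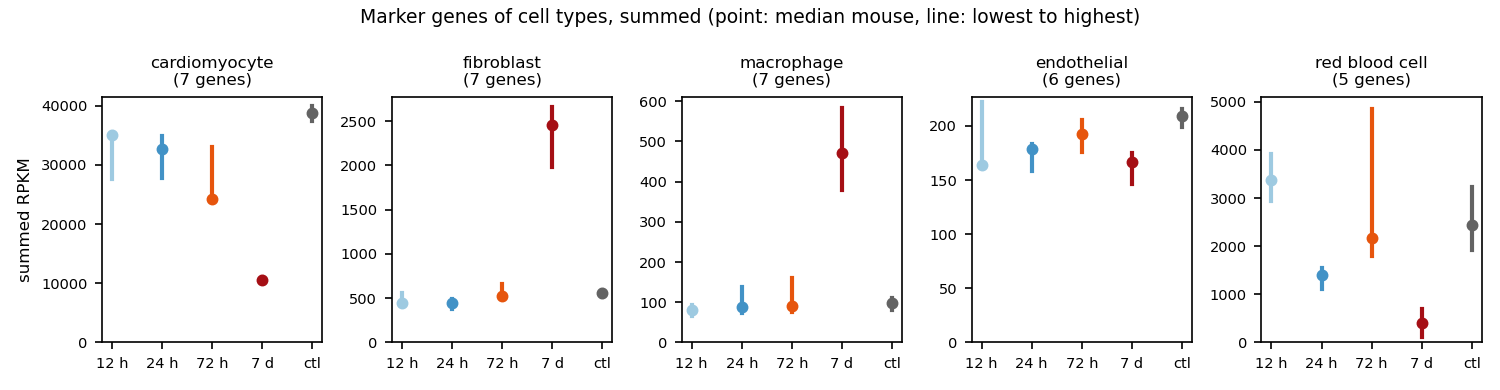
Summed RPKM (y axis, linear from 0) of marker genes of 5 cell types at 12 hours, 24 hours, 72 hours and 7 days of induction and in controls (ctl). Points are the median mouse and lines run from the lowest to the highest of 3 mice. The 7 day mice lie below the controls for heart muscle, endothelial and red blood cell markers and above them for fibroblast and macrophage markers.

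Over the 5 groups 57 of the 67 tested members differed (limma F test), or 85.1%, beside 71.3% of all genes tested. At 12 hours 1 member was higher and 9 were lower (background 0.524% and 12.7% of all genes), and at 24 hours 5 were higher and 14 lower (background 5.38% and 10.6%). At 72 hours 9 were higher and 3 lower (background 6.39% and 5.22%). At 7 days 25 were higher and 26 lower, 37.3% and 38.8% of those tested, beside 26.7% and 28.2% of all genes. The median member differed from control by −0.28, −0.20, −0.03 and −0.25 at the 4 times, and the median of all genes by −0.30, −0.19, −0.10 and −0.03. Of the 67, 25 changed at 7 days and at no other time, 7 were higher at some times and lower at others, and 10 never passed the test (among them Gstm4, Gsto1, Gstt3, Prdx1, Txnrd3, Txndc11, Txndc12, Txndc15 and Txndc16). The share of all genes with each of these patterns was not counted, so the patterns cannot be read as particular to the members.

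The median gene at 12 hours lay 0.30 below control, and the 12 hour count changed with the scaling of libraries. Scaled by the median of ratios, which put that median at 0.01, 2 members were higher and 1 lower at 12 hours, and 7 higher and 9 lower at 24 hours; quantile normalization gave 2 and 1 at 12 hours and 7 and 12 at 24 hours. Single mice mattered too. The count at 24 hours fell to 1 without the 24 hour mouse A3262, to 1 without the control A3280, to 2 without the control A3259 and to 11 without the control A3250. At 12 hours the count was 1 without the control A3259, 2 without A3280 and 5 without A3250, it was 4 without the 12 hour mouse A3258 and 3 without A3276, and it was 17 without the 72 hour mouse A3278. At 72 hours it was 7 without A3281 and 18 without A3278. At 7 days it stayed between 42 and 51 whichever mouse was left out. The share of all genes called was counted for the main fit only, so these shifts cannot be read as particular to the members.

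**Figure D2:**
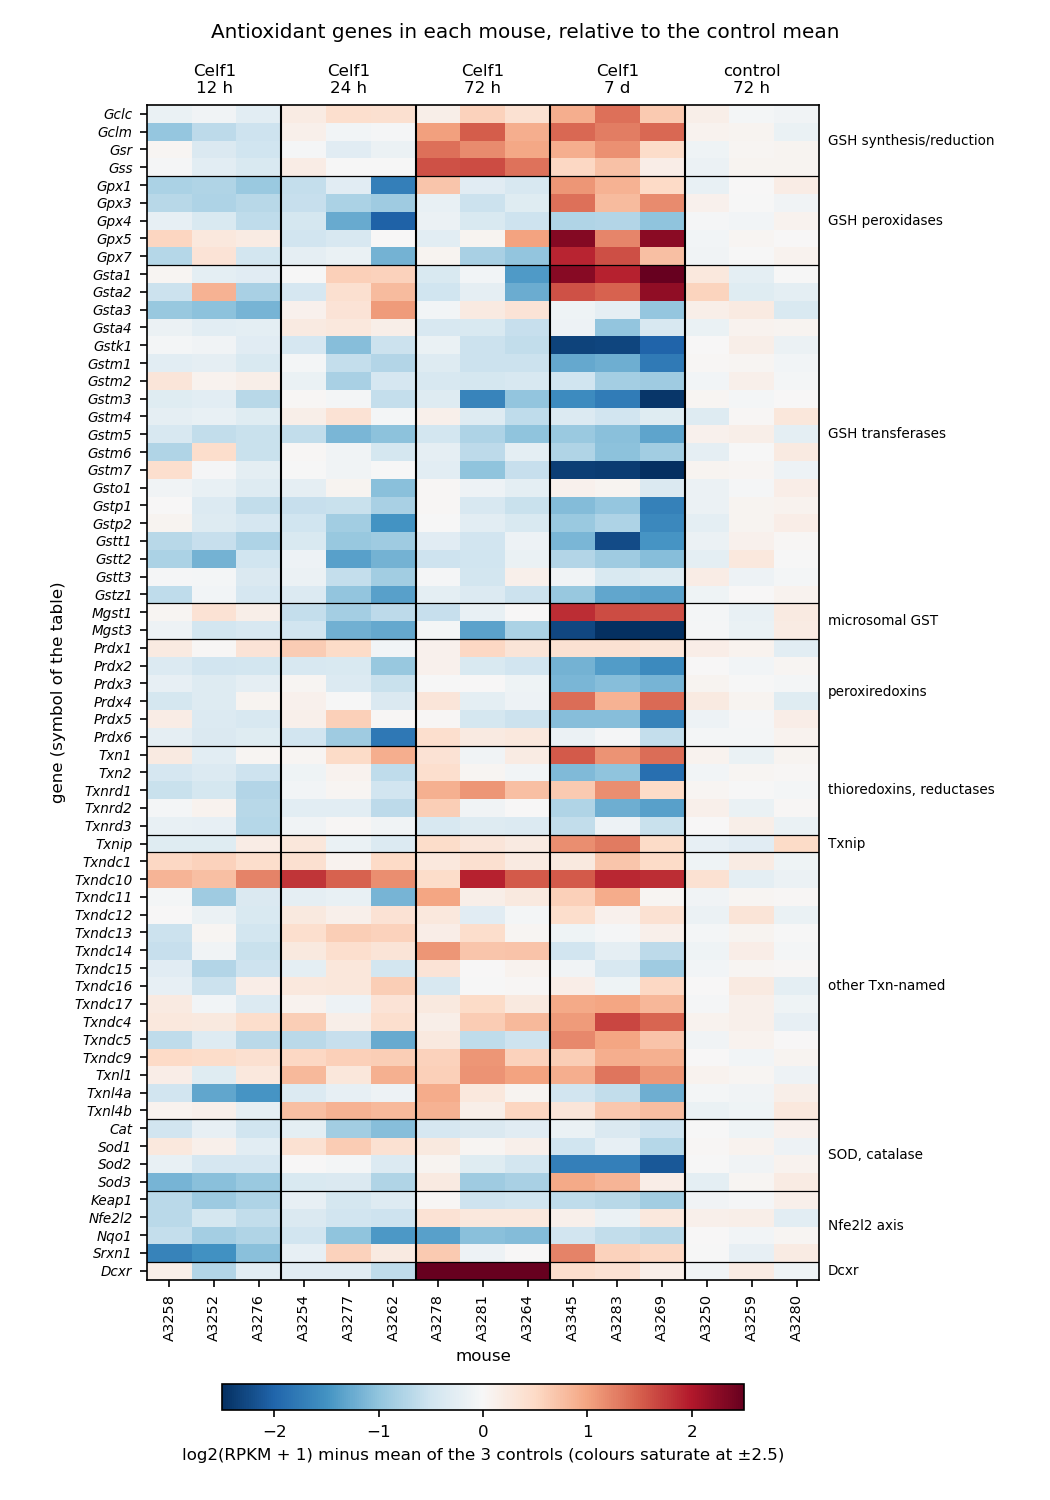
Each row is 1 tested member, grouped by role (all but 1 of the 67 are drawn), and each column 1 mouse, with the 4 induced groups left of the controls. Colour gives log2(RPKM + 1) minus the mean of the 3 controls and saturates at 2.5 in either direction, so Dcxr at 72 hours (2.91) and Mgst3 (−2.64) and Gstm7 (−2.57) at 7 days are at the ends of the scale.

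Of the genes that make and recycle glutathione, 3 of 4 were higher at 72 hours and 4 of 4 at 7 days, beside 6.39% and 26.7% of all genes. Gclm, the modifier subunit of glutamate-cysteine ligase, was at 25.5, 36.1 and 23.2 RPKM at 72 hours and 34.3, 30.5 and 34.2 RPKM at 7 days, against 12.8, 12.6 and 10.6 RPKM in controls. All 6 of these mice were above all controls, by 1.15 ± 0.18 (adjusted p = 0.000777) and 1.39 ± 0.18 (adjusted p = 7.49e-06). At 12 hours the order was the other way, with 5.61, 7.23 and 8.05 RPKM and a difference of −0.71 ± 0.18 (adjusted p = 0.0226), and the 12 hour call was lost under both rescalings (−0.39 and −0.37), without the 12 hour mouse A3258 (−0.58) and without each control in turn (−0.67 to −0.80). Gclc, the catalytic subunit, was at 11.0, 15.7 and 9.08 RPKM at 7 days, against 6.11, 5.23 and 5.02 RPKM in controls, higher by 0.98 ± 0.19. With the column code as a term Gclc at 7 days (0.76) and Gclm at 72 hours (1.03, adjusted p = 0.0501) did not pass. At 72 hours Gclc was at 6.10, 8.66 and 7.34 RPKM and overlapped the controls, so the subunits of the ligase did not pass the test at the same times; whether their changes differ was not tested.

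Gss, the synthetase that completes glutathione, stood out at 72 hours with 30.1, 30.8 and 25.6 RPKM, against 8.38, 9.91 and 9.81 RPKM in controls, a mean 3.08 times the control mean (1.52 ± 0.17, adjusted p = 4.2e-05). By 7 days it was at 13.8, 16.2 and 10.7 RPKM, still above every control (0.48 ± 0.17), and the step from 72 hours to 7 days was −1.05 ± 0.17 (adjusted p = 0.000126). The 7 day call of Gss was lost without the 7 day mouse A3345 (0.46) or A3283 (0.35) and without the control A3250 (0.41) or A3280 (0.51), and it was 0.65 and not past the test with the column code. Gsr, glutathione reductase, was at 28.9, 25.3 and 21.6 RPKM at 72 hours and 20.5, 24.5 and 14.9 RPKM at 7 days, against 9.62, 10.9 and 11.1 RPKM in controls. The groups did not overlap at either time, and Gsr was higher by 1.18 ± 0.20 and 0.84 ± 0.20. Mouse A3278, which shares its column code with the controls, differed from them by 1.59 for Gss, 1.38 for Gsr and 1.03 for Gclm, but by 0.14 for Gclc. On the other strand, exons of Gss overlap those of Acss2 and exons of Gclm those of Gm17494, and the sources used here do not say whether counting used strand.

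Dcxr, dicarbonyl/L-xylulose reductase, an NADPH-dependent carbonyl reductase, had the largest difference of any member at any time, and had it at 72 hours. It was at 95.6, 67.3 and 74.9 RPKM at 72 hours, against 8.93, 11.2 and 8.80 RPKM in controls, a mean 8.22 times the control mean (2.91 ± 0.21, adjusted p = 3.12e-07). The other times lay close to the controls, with 10.7, 5.38 and 7.82 RPKM at 12 hours, 7.66, 7.74 and 5.86 RPKM at 24 hours and 13.2, 12.5 and 10.8 RPKM at 7 days, and none of them passed the test. The step from 24 to 72 hours was 3.30 ± 0.21 and that from 72 hours to 7 days −2.60 ± 0.21 (adjusted p = 5.43e-08 and 5.32e-08). Mouse A3278 differed from the controls of its own code by 3.19. The gene lies at chr11:120586713-120588595 on the minus strand (mm9), with no annotated exon of another gene overlapping its own. Txndc14 (now Tmx2), a membrane thioredoxin-like protein of the endoplasmic reticulum, was also highest at 72 hours, at a smaller scale. It was at 119, 90.2 and 91.1 RPKM at 72 hours and 39.2, 46.7 and 34.6 RPKM at 7 days, against 50.8, 61.5 and 53.5 RPKM in controls, which put it 0.84 ± 0.18 above control at 72 hours and at −0.46 ± 0.18 against control at 7 days. The 7 day call was lost without A3345 (−0.45) or A3269 (−0.36), without each control in turn (−0.38 to −0.51) and with the column code (−0.12).

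**Figure D3:**
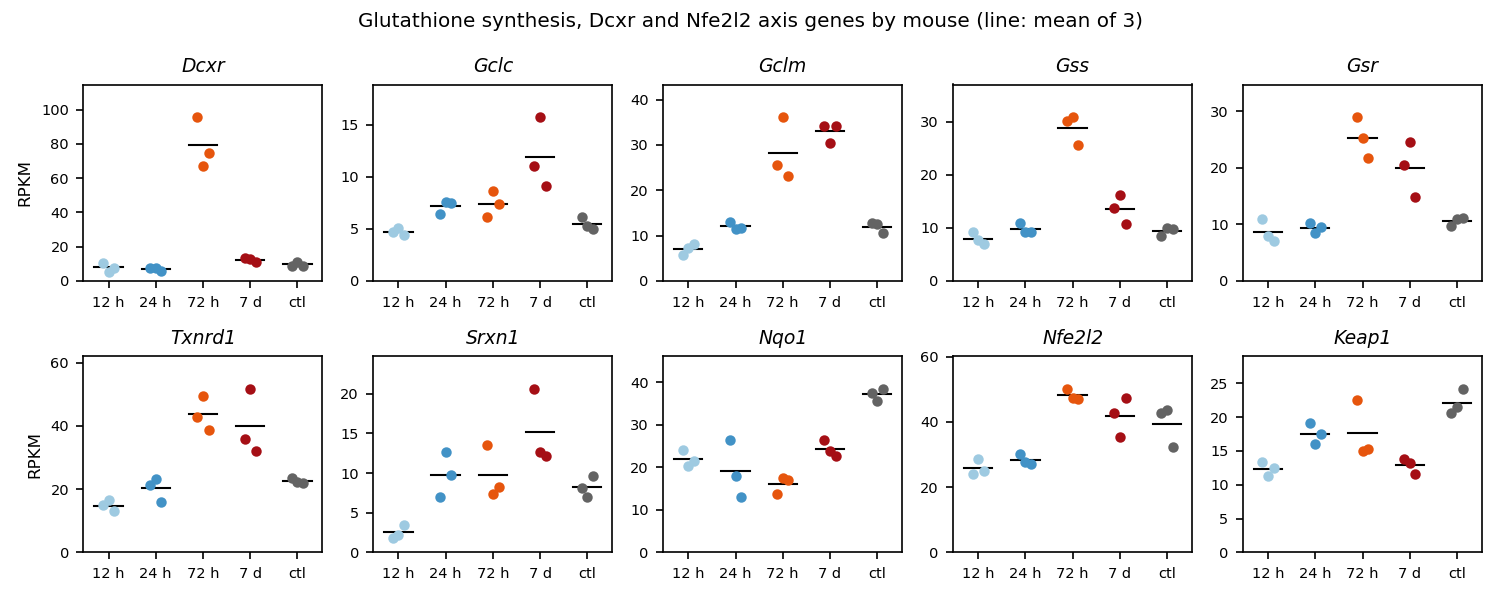
RPKM (y axes, linear from 0) of Dcxr, the 4 glutathione synthesis and recycling genes, Txnrd1 and the Nfe2l2 axis in each mouse at 12 hours, 24 hours, 72 hours and 7 days and in controls (ctl); lines are means of 3. Dcxr was high at 72 hours alone, Gss and Gsr were above all controls at 72 hours and 7 days, and Nqo1 was below all controls at every time.

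All 4 genes of the NRF2 axis (Nqo1, Srxn1, Nfe2l2 and Keap1) were lower at 12 hours, with a median of −0.76, beside 12.7% of all genes, and only Srxn1 kept that call under both rescalings. At 24 and at 72 hours 1 of the 4 was lower (10.6% and 5.22% of all genes) and none higher. At 7 days 1 was higher and 2 were lower (26.7% and 28.2% of all genes). Nqo1, a quinone reductase and textbook NRF2 target, was below every control at all 4 times. It was at 13.8, 17.4 and 17.0 RPKM at 72 hours, against 37.4, 35.6 and 38.4 RPKM in controls (−1.17 ± 0.20, adjusted p = 0.00162). It differed by −0.74 ± 0.20 at 12 hours, −0.97 ± 0.20 at 24 hours and −0.60 ± 0.20 at 7 days. The 72 hour call held under every alternative run, whereas at 12 hours it was lost under both rescalings (−0.38 and −0.40), under the GC correction (−0.55) and without any 1 of the 12 hour or control mice, at 24 hours without A3262 or the control A3280 and at 7 days without A3269 or the control A3280. With the column code the 7 day difference of Nqo1 was −0.92. At 72 hours Nqo1 therefore stood below control while Gclm, Gss, Gsr and Txnrd1 stood above it.

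Srxn1, sulfiredoxin, which repairs overoxidized peroxiredoxins, was at 1.87, 2.22 and 3.45 RPKM at 12 hours and 20.6, 12.7 and 12.2 RPKM at 7 days, against 8.16, 6.96 and 9.64 RPKM in controls. It was lower at 12 hours (−1.41 ± 0.26), a call lost only with the column code as a term (−0.67), and higher by 0.78 ± 0.26 at 7 days. The step from 12 to 24 hours was 1.61 ± 0.26 (adjusted p = 0.00329). The 7 day call was lost without A3345 (0.55) or the control A3259 (0.68), and it was 1.51 with the column code. Nfe2l2 itself was at 24.0, 28.6 and 25.0 RPKM at 12 hours, 50.1, 47.2 and 47.1 RPKM at 72 hours and 42.8, 35.4 and 47.3 RPKM at 7 days, against 42.6, 43.5 and 32.2 RPKM in controls. It was lower at 12 hours (−0.58 ± 0.16), where both rescalings and the GC correction lost the call (−0.23, −0.25 and −0.39), as did leaving out A3258, A3276 or any control, and it differed by 0.29 ± 0.16 at 72 hours and 0.09 ± 0.16 at 7 days without passing. Keap1, the adaptor that marks NRF2 for degradation, was at 13.4, 11.3 and 12.4 RPKM at 12 hours and 13.8, 13.3 and 11.7 RPKM at 7 days, against 20.6, 21.5 and 24.2 RPKM in controls. Its differences were −0.79 ± 0.17 and −0.73 ± 0.17. With a correction for GC content they were −0.19 and −0.25 and with the column code −0.22 and −0.16, none past the test, and the 12 hour call was lost under both rescalings (−0.44 and −0.45) and without the control A3259 or A3280.

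At 7 days 13 of the 19 glutathione transferases tested were lower and 2 higher, beside 28.2% and 26.7% of all genes, with a median of −0.90. At 72 hours 2 were lower (Gstm3 and Gstm5), at 24 hours 6 and at 12 hours 1, beside 5.22%, 10.6% and 12.7% of all genes. The 72 hour calls of Gstm3 and Gstm5 were lost without A3281 (−0.65 and −0.73) or A3264 (−0.99 and −0.61), without the control A3250 or A3259 (Gstm3 also without A3280) and with the column code (−0.32 and −0.45). Gstm7 was at 4.39, 4.34 and 2.42 RPKM at 7 days, against 27.7, 27.6 and 24.2 RPKM in controls (−2.57 ± 0.22, adjusted p = 7.01e-08). Gstk1, the mitochondrial and peroxisomal kappa-class enzyme, was at 9.42, 9.47 and 11.9 RPKM, against 50.8, 55.6 and 45.5 RPKM (−2.20 ± 0.19). For both genes the highest 7 day mouse lay far below the lowest control. Gstm3 was at 13.4, 11.7 and 6.88 RPKM, against 42.9, 40.1 and 42.2 RPKM (−1.92 ± 0.29; −0.93 and not past the test with the column code), and Gstt1 at 5.46, 2.03 and 4.14 RPKM, against 11.9, 14.4 and 13.5 RPKM (−1.61 ± 0.23). Gstm1, the most abundant mu-class member on the RPKM scale, was at 92.3, 95.3 and 65.5 RPKM, against 229, 231 and 213 RPKM (−1.42 ± 0.19). The 7 day mice were also below every control for Gstp1 (−1.25 ± 0.22), Gstz1 (−1.19 ± 0.23), Gstp2 (−1.10 ± 0.25) and Gstm5 (−1.10 ± 0.19). The same held for Gstt2 (−0.90 ± 0.27), Gstm6 (−0.88 ± 0.26) and Gstm2 (−0.75 ± 0.18). With the column code Gstt2 was at −1.42, while Gstp1 (−0.69), Gstp2 (−0.72), Gstm5 (−0.56) and Gstm6 (−0.51) lost their calls. With the GC correction Gstt2 lost its call (−0.56). Heart muscle markers were lower in the same 7 day mice, with a median of −2.23, and their part in the transferases was not tested.

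Gsta1 and Gsta2, alpha-class transferases, went the other way. Gsta1 was at 11.9, 9.17 and 20.3 RPKM at 7 days, against 2.20, 1.26 and 1.66 RPKM in controls (2.39 ± 0.31, adjusted p = 7.49e-06), and Gsta2 at 6.08, 5.54 and 9.89 RPKM, against 2.46, 0.91 and 0.98 RPKM (1.76 ± 0.41). Every 7 day mouse was above every control for both genes. They are near-identical copies: 91.5% of the 36-base stretches of the Gsta1 transcript and 71.9% of those of Gsta2 occur in other transcripts, so how the reads were divided between them is uncertain, as it is between Gstp1 and Gstp2 (71.4% and 71.8%). Gsta4, the alpha-class enzyme that handles 4-hydroxynonenal, was at 51.7, 28.3 and 42.6 RPKM at 7 days, against 50.7, 60.8 and 59.4 RPKM. Its difference of −0.51 ± 0.19 was lost under both rescalings (−0.44 and −0.42), with the GC correction (−0.41), with the column code (−0.52) and without the 7 day mouse A3283 (−0.27) or the control A3259 or A3280. Gsta3 was lower only at 12 hours in the tests made, with 6.65, 6.26 and 5.56 RPKM against 15.4, 16.3 and 10.4 RPKM (−1.05 ± 0.26), and lost the call under both rescalings (−0.72 in each), with the GC correction (−0.93) and without A3258, A3276 or the control A3250 or A3259.

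The microsomal transferases moved apart at 7 days. Mgst3 was at 73.0, 55.7 and 44.3 RPKM, against 348, 316 and 412 RPKM in controls (−2.64 ± 0.28, adjusted p = 9.07e-07). Mgst1 was at 66.3, 56.8 and 56.1 RPKM, against 17.0, 15.4 and 20.8 RPKM (1.70 ± 0.18, adjusted p = 7.42e-07). In controls Mgst3 had the higher level per length by far, and in the 7 day mice the levels of the pair overlapped. Both calls held in every alternative run, at −1.74 for Mgst3 and 1.10 for Mgst1 with the column code. At 24 hours both were lower (−0.99 ± 0.28 for Mgst3 and −0.70 ± 0.18 for Mgst1), and both calls were lost without A3262, without A3277, and without the control A3259 or A3280. That of Mgst3 was also lost without the control A3250 and with the GC correction (−0.75), and that of Mgst1 under both rescalings (−0.49 and −0.51). The summed markers of fibroblasts, macrophages and neutrophils were above every control at 7 days. Those of heart muscle, endothelial cells, red blood cells and the atrium were below every control. What part any of these shifts had in Mgst1 or Mgst3 was not tested.

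**Figure D4:**
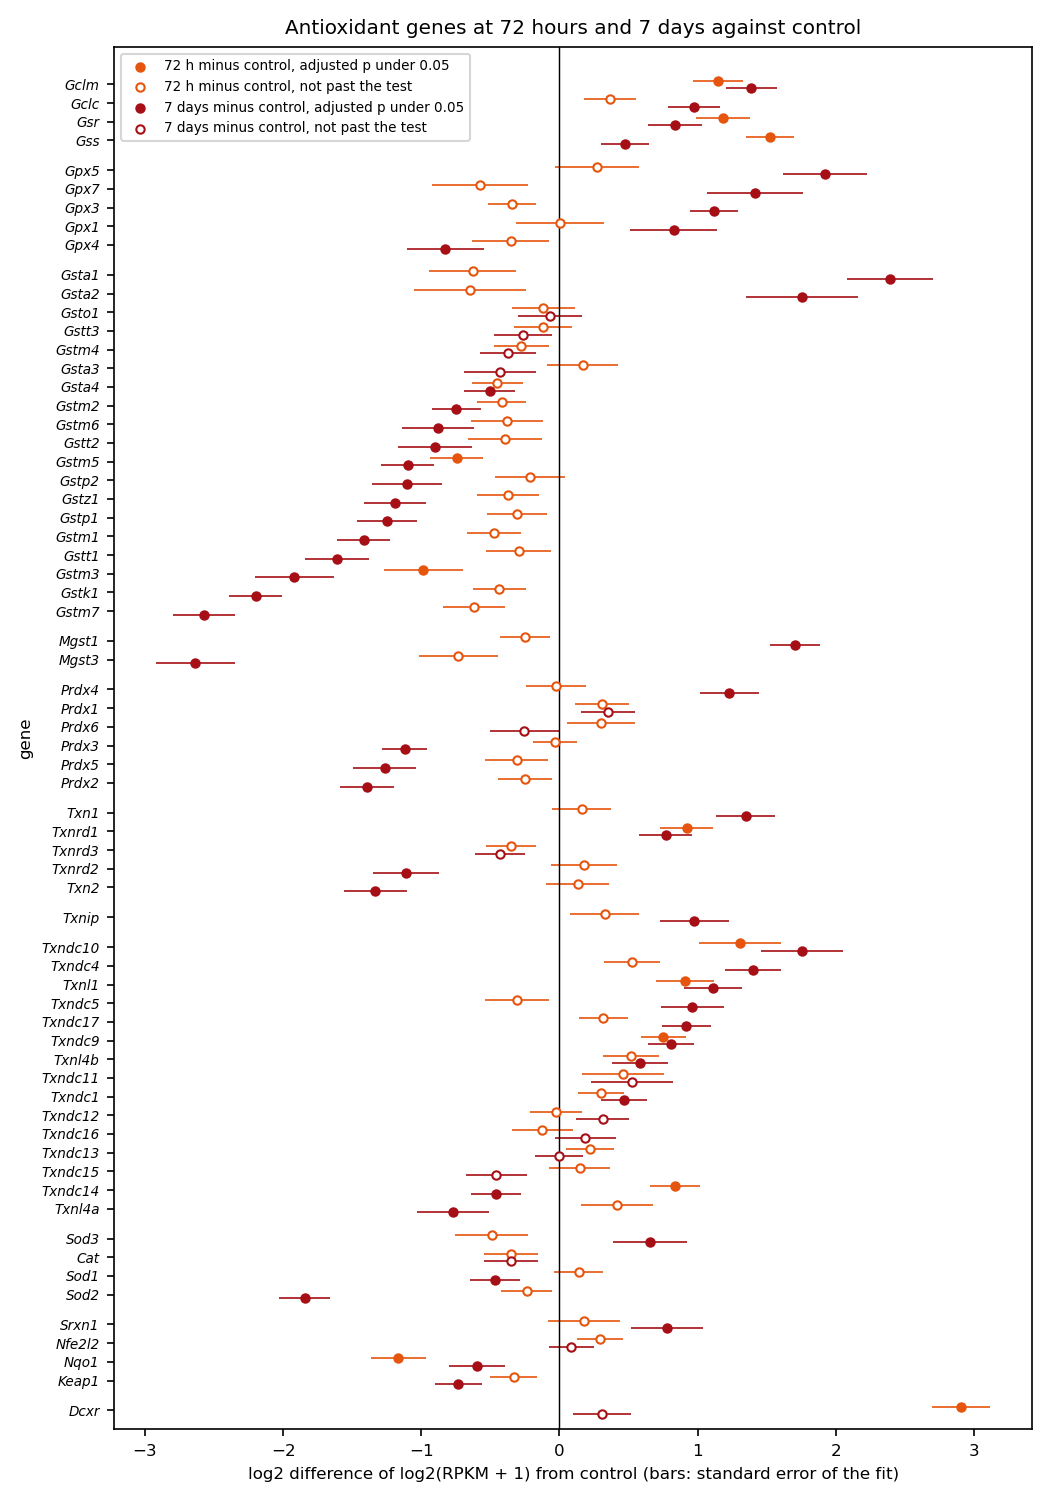
Log2 difference from control (x axis) of all but 1 of the 67 tested members at 72 hours and 7 days, grouped by role; bars are standard errors of the fit and filled points passed an adjusted p of 0.05. At 7 days 13 glutathione transferases lie to the left and Gsta1 and Gsta2 to the right, and all 4 glutathione synthesis and recycling genes lie to the right.

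Of the 5 glutathione peroxidases tested, 4 were higher and 1 lower at 7 days, beside 26.7% and 28.2% of all genes, and none passed at 72 hours. Gpx3, the plasma peroxidase that cells secrete, was at 445, 299 and 392 RPKM at 7 days, against 185, 169 and 161 RPKM in controls (1.12 ± 0.17, adjusted p = 4.18e-05). At 12 and 24 hours it had been lower (−0.72 ± 0.17 and −0.76 ± 0.17), and both early calls were lost without the control A3259 or A3280 and with the GC correction (−0.25 and −0.35). The 12 hour call was also lost under both rescalings (−0.36 and −0.45) and without A3276 or the control A3250, and the 24 hour call without A3262 (−0.69). Gpx5 was at 6.49, 2.58 and 6.31 RPKM at 7 days, against 0.46, 0.59 and 0.55 RPKM (1.92 ± 0.30). With the column code as a term Gpx5 differed by 0.66 and did not pass. Its mean was 0.94 RPKM at 12 hours, 0.27 at 24 hours, 0.99 at 72 hours and 0.53 in controls. Gpx5 thus reached the filter of 1 RPKM only through the 7 day mice, so its 7 day call was not independent of the filter. Gpx7, a peroxidase of the endoplasmic reticulum, was higher by 1.42 ± 0.35 and held in every alternative (2.54 with the column code). Gpx1, the main cytosolic enzyme, was at 183, 154 and 119 RPKM at 7 days, against 73.6, 84.6 and 95.0 RPKM. It was higher by 0.83 ± 0.32, a call lost without A3345, without A3283 and without each control in turn (0.68 to 0.92), whereas with the column code as a term the difference was 1.96 (adjusted p = 0.000116). Gpx4, which reduces lipid hydroperoxides in membranes, was the peroxidase that was lower, at 421, 427 and 353 RPKM, against 698, 676 and 751 RPKM (−0.83 ± 0.28), although a GC correction left −0.32, quantile normalization −0.46 and the column code −0.48, none past the test, and the call was also lost without A3269 (−0.74) or the control A3280 (−0.78).

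Among the 7 peroxiredoxins tested, 3 were lower and 1 higher at 7 days, beside 28.2% and 26.7% of all genes, and none passed at 72 hours. Prdx3, the main peroxiredoxin of mitochondria, was at 88.2, 93.8 and 87.6 RPKM, against 205, 195 and 190 RPKM in controls (−1.12 ± 0.16), with little spread in either group. Prdx5, found in mitochondria and elsewhere, was at 150, 151 and 97.6 RPKM, against 287, 307 and 352 RPKM (−1.26 ± 0.23), and with the column code differed by −0.72 and did not pass. Prdx2, abundant in red blood cells, was at 170, 145 and 126 RPKM, against 388, 366 and 400 RPKM (−1.39 ± 0.20; −0.83 with the column code). Markers of red blood cells were lower in the same mice, at a sum of 103 to 686 RPKM against 1920 to 3223 RPKM. At 12 hours those markers summed to 2944 to 3918 RPKM, and Prdx2 was at 301, 277 and 280 RPKM. That difference of −0.43 did not pass the test, and the median of all genes was −0.30 then. What part red blood cells had in Prdx2 was not tested at either time. Prdx4, the peroxiredoxin of the endoplasmic reticulum, was at 27.1, 18.5 and 27.2 RPKM, against 11.4, 10.2 and 7.61 RPKM (1.23 ± 0.22). Prdx1 did not pass at any time, and 7 day mice had 193, 195 and 184 RPKM, against 169, 160 and 124 RPKM in controls (0.35 ± 0.20). Prdx6 was lower at 24 hours, with 93.2, 69.6 and 36.8 RPKM against 126, 125 and 138 RPKM (−1.05 ± 0.25), and the call was lost without A3262 (−0.68), the mouse with the lowest value, and without the control A3259 or A3280.

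Each of the thioredoxin pairs held a cytosolic and a mitochondrial gene that differed in direction at 7 days. Txn1, cytosolic thioredoxin, was at 268, 202 and 244 RPKM, against 98.2, 82.5 and 97.3 RPKM in controls (1.35 ± 0.21, adjusted p = 5.07e-05). Txn2, its mitochondrial counterpart, was at 80.1, 85.7 and 46.7 RPKM, against 165, 179 and 179 RPKM (−1.33 ± 0.23; −0.75 and not past the test with the column code). In controls Txn2 had the higher level per length in every mouse, and at 7 days Txn1 had. Txnrd1, cytosolic thioredoxin reductase, was at 42.8, 49.6 and 38.7 RPKM at 72 hours and 35.9, 51.7 and 32.0 RPKM at 7 days, against 23.4, 22.3 and 21.9 RPKM. It was higher by 0.92 ± 0.19 and 0.77 ± 0.19, and with the column code as a term by 0.90 and 0.84, neither past the test there (adjusted p = 0.0692 and 0.0554). Txnrd2, the mitochondrial reductase, was at 11.3, 7.87 and 6.99 RPKM at 7 days, against 21.5, 17.4 and 20.1 RPKM (−1.11 ± 0.24), and at −0.48 with the column code, not past the test. Txnip, which binds and inhibits thioredoxin, was at 306, 332 and 188 RPKM at 7 days, against 118, 111 and 190 RPKM (0.98 ± 0.25), and the groups overlapped by 1 mouse each.

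**Figure D5:**
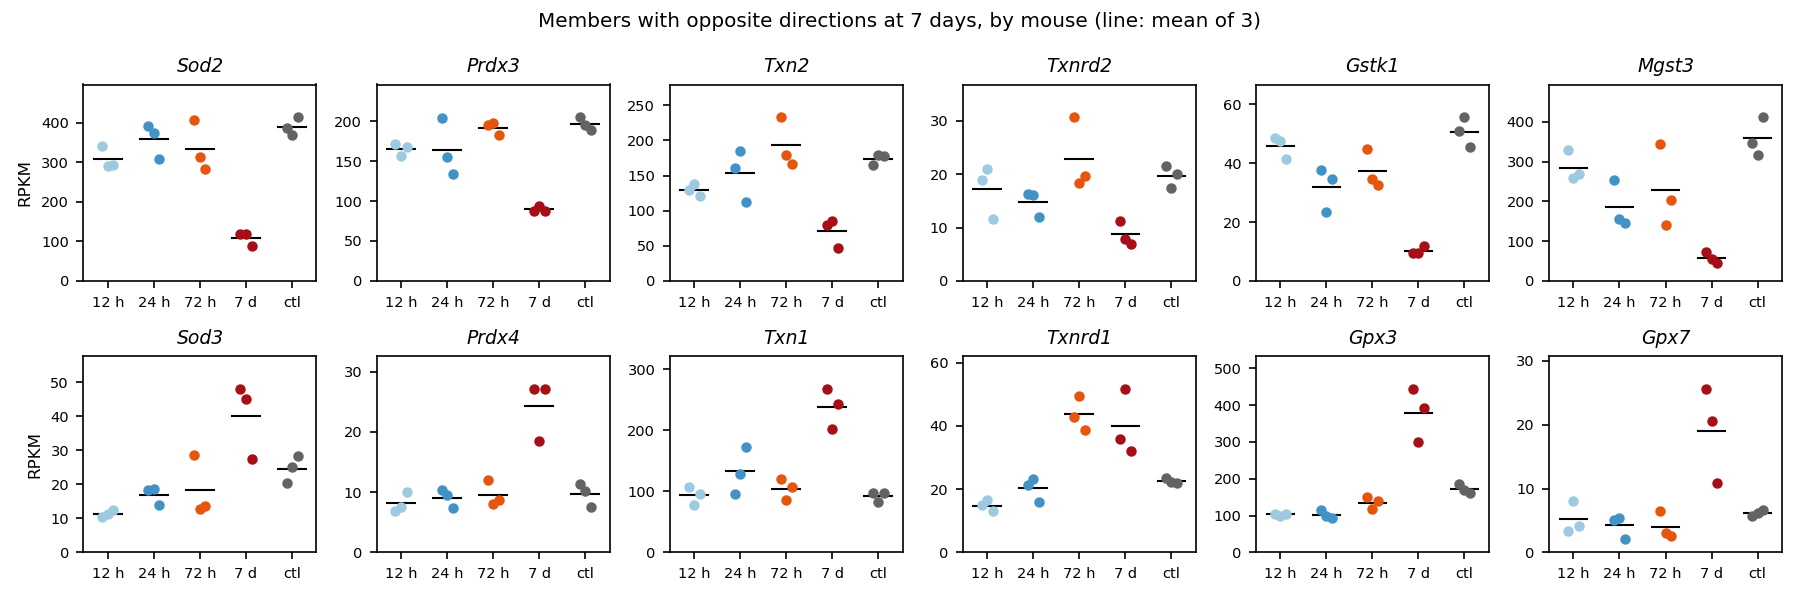
RPKM (y axes, linear from 0) in each mouse of 12 members chosen after their values were seen, with 5 members that act at least partly in mitochondria and Mgst3 in the upper row and cytosolic, endoplasmic reticulum or secreted members in the lower row; lines are means of 3. At 7 days the upper row was lower and the lower row higher than control, while other members that act in the cytosol and are not drawn were lower too (Sod1, Prdx2 and Gstm1), and at 72 hours only Txnrd1 of the 12 passed the test.

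Of the other genes named after thioredoxin, 15 were tested, and 4 were higher at 72 hours, beside 6.39% of all genes. At 7 days 8 of the 15 were higher and 2 lower, beside 26.7% and 28.2% of all genes. Txndc10 (now Tmx3), a membrane oxidoreductase of the endoplasmic reticulum, was above every control at all 4 times. It was at 11.6, 15.1 and 14.5 RPKM at 7 days, against 4.64, 2.67 and 2.94 RPKM in controls (1.76 ± 0.30), and at 4.96, 15.4 and 11.6 RPKM at 72 hours (1.31 ± 0.30). The lowest of these 72 hour values belonged to A3278, which differed from the controls of its code by 0.46, and with the code as a term the 7 day difference was 0.60 and did not pass. The 72 hour call was also lost without A3264 (1.19), A3281 or the control A3259 (1.19). Txnl1, a thioredoxin-like protein bound to the proteasome, was higher at 24 hours (0.66 ± 0.21), 72 hours (0.91 ± 0.21) and 7 days (1.11 ± 0.21), as was Txndc9, a regulator of chaperonin folding (0.58, 0.75 and 0.81, each ± 0.17). With the code as a term neither passed at 72 hours or 7 days. The calls of both at 24 hours were lost without A3262 and without each control in turn, for Txndc9 also without A3277 and for Txnl1 also without A3254, A3258 or the 72 hour mouse A3264 and with the GC correction (0.18), and at 72 hours without A3281, for Txnl1 also without the control A3280. Txndc4 (now Erp44), which retains proteins in the secretory route, was higher by 1.40 ± 0.20 at 7 days, and Txndc5, a disulfide isomerase of the endoplasmic reticulum, by 0.96 ± 0.23. Txndc17, a cytosolic thioredoxin-like protein, was at 70.7, 72.8 and 64.8 RPKM at 7 days, against 35.7, 39.7 and 33.6 RPKM (0.92 ± 0.18), and like Txndc4 and Txndc5 held in every alternative. With the column code Txndc4 differed by 0.86 and Txndc5 by 1.82. Txnl4b, a further spliceosome protein, was higher at 24 hours (0.81 ± 0.20) and 7 days (0.58 ± 0.20) and Txndc13, a membrane thioredoxin-like protein, at 24 hours (0.54 ± 0.18). The 24 hour call of Txnl4b was lost without A3262 or any control, and its 7 day call without A3283, A3269 or the control A3250 or A3259 and with the column code (0.90). That of Txndc13 was lost with the GC correction (0.27) and without any control or any 1 of A3262, A3277, A3276, A3264, A3345 and A3283. Txnl4a, a spliceosome protein despite its name, was lower at 12 hours (−1.09 ± 0.26) and at 7 days (−0.77 ± 0.26), and with the column code these were −0.32 and 0.03. Both calls were lost with the GC correction (−0.71 and −0.54) and without the control A3280, the first also under both rescalings (−0.74 and −0.75), without A3276 and without the control A3259, and the second without A3269 (−0.55).

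Sod2, the manganese superoxide dismutase of mitochondria, was at 119, 118 and 88.7 RPKM at 7 days, against 387, 369 and 414 RPKM in controls (−1.85 ± 0.18, adjusted p = 3.18e-07), and this held in every alternative. Sod3, the extracellular enzyme, was at 48.1, 45.0 and 27.4 RPKM, against 20.3, 25.3 and 28.2 RPKM (0.66 ± 0.27), with 1 mouse of each group overlapping. Its call was lost without A3345 (0.51) or A3283 (0.56), without each control in turn (0.53 to 0.76) and also without any 12 hour mouse or A3254 (0.66), whereas with the column code the difference was 1.91 (adjusted p = 0.00108). It had been lower at 12 hours (−1.04 ± 0.27), a call lost under both rescalings (−0.70 in each), with the GC correction (−0.66) and without A3258, A3276 or the control A3259 or A3280, and there the fit with the column code gave 0.20. Sod1, the copper-zinc enzyme of the cytosol, was at 166, 205 and 144 RPKM at 7 days, against 239, 252 and 216 RPKM (−0.47 ± 0.18), and the call was lost under quantile normalization (−0.25), under the GC correction (−0.18), with the column code (−0.34) and without A3345, A3269 or the control A3250 or A3259. Cat, catalase, was below every control at all 4 times but passed the test only at 24 hours (−0.73 ± 0.19). It lost that call without A3277, without A3262, without each control in turn and under median-of-ratios scaling (−0.52).

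Between successive times the changes were as follows. From 12 to 24 hours 6 members were higher and 1 lower (background 3.35% and 0.57%), and from 24 to 72 hours 8 were higher and 2 lower (background 7.67% and 2.57%). Scaling by the median of ratios changed these splits to 5 and 5, and to 9 and 6. Quantile normalization gave 4 and 5, and 11 and 6. The background of all genes was not counted under either rescaling. From 72 hours to 7 days 16 were higher and 21 lower (background 22.6% and 22.3%). Within the last step Gsta1 (3.02 ± 0.31), Mgst1 (1.95 ± 0.18) and Gpx3 (1.46 ± 0.17) were among those higher, and Dcxr, Gstm7 (−1.95 ± 0.22), Mgst3 (−1.91 ± 0.28) and Gstk1 (−1.76 ± 0.19) among those lower.

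Neighbouring pathways gave context for the members. Of 29 tested NRF2-linked and NADPH-supply genes outside the members, 2 were higher and 1 lower at 72 hours, and 8 were higher and 6 lower at 7 days. These counts, like those of the lists that follow, stand beside 6.39% of all genes higher and 5.22% lower at 72 hours, and 26.7% higher and 28.2% lower at 7 days. Hmox1, haem oxygenase, was at 50.9, 40.2 and 36.5 RPKM at 72 hours and 180, 237 and 87.3 RPKM at 7 days, against 8.67, 8.19 and 7.00 RPKM in controls (2.27 ± 0.31 and 4.13 ± 0.31). Idh2, which supplies NADPH in mitochondria, was at 151, 169 and 116 RPKM at 7 days, against 925, 984 and 960 RPKM (−2.73 ± 0.21), and G6pdx, which supplies it in the cytosol, was higher by 1.62 ± 0.18. Of 8 tested genes in a p53-linked list, 4 were higher at 72 hours and none lower, with a median of 1.17. Among those higher were Trp53inp1 (4.01 ± 0.21), Mdm2 (2.33 ± 0.19) and Sesn2 (1.95 ± 0.22). The list was drawn up for redox genes but also holds Mdm2 and Cdkn1a, which are not redox genes. By 7 days 2 of the 8 were higher and 3 lower, with a median of 0.02, and Mdm2 (0.42 ± 0.19) and Sesn2 (0.20 ± 0.22) did not pass. Aldh4a1 was lower at 7 days (−2.66 ± 0.23).

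Of 22 tested further thiol redox genes, none passed at 72 hours, and at 7 days 3 were higher and 10 lower, with a median of −0.49. Among the named ones, Esd, S-formylglutathione hydrolase, was higher by 1.75 ± 0.19 and Glrx, glutaredoxin, by 0.73 ± 0.20, while Msrb2, the mitochondrial methionine sulfoxide reductase, was lower (−3.20 ± 0.28), as was Chac2, which degrades glutathione (−0.92 ± 0.18). Of 11 tested oxidant sources, 8 were higher and 2 lower at 7 days. Among them were subunits of the phagocyte NADPH oxidase, Cybb (2.65 ± 0.28) and Ncf1 (2.63 ± 0.21), and Rac2 (2.23 ± 0.27). Macrophage markers were also higher in these mice, as were the 3 of 5 neutrophil markers that were tested. The 5 neutrophil markers summed to 21.8 to 30.7 RPKM, against 0.62 to 2.56 RPKM in controls. With sums that low in controls, the neutrophil calls may not be independent of the filter of 1 RPKM. Of 6 tested iron and metallothionein genes, 4 were higher at 7 days. The metallothionein Mt2 was at 671, 782 and 244 RPKM, against 23.9, 12.3 and 20.5 RPKM (4.72 ± 0.52), and Mt1 was higher by 1.58 ± 0.43. The ferritin light chain Ftl1 was higher by 1.57 ± 0.21, and the transferrin receptor Tfrc was higher at all 4 times (1.62, 1.57, 0.91 and 2.03, each ± 0.22).

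The 7 members that were not tested (Gpx2, Gpx6, Gsto2, Gstt4, Mgst2, Txndc2 and Txndc8) averaged under 1 RPKM, and Gpx2 and Txndc8 were listed at 0 in all but 1 mouse each. The members together made up 0.999% to 1.32% of all RPKM in a mouse, and this share was 1.24% to 1.32% at 72 hours and 1.14% to 1.18% at 7 days, against 1.17% to 1.21% in controls. The 72 hour mice thus lay above the controls and the 7 day mice overlapped them, although 51 of 67 tested members had changed by then.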

How the data were processed

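Reads were paired-end from polyadenylated RNA, per the labels' protocols. TopHat, Bowtie and the build mm9 are named in the submitters' processing notes; no version, counting step or use of strand is given in the sources used here. The authors deposited 1 table of RPKM, rounded to 2 decimals, with 20 columns for 15 mice; the 2 columns of each of 5 mice were averaged. Low values of olfactory receptor genes gave the depth, with 10 to 33 of 90 such genes used in a column. The estimate came within 5% of the truth in 40 of 40 simulated columns. These were simulated with the gene lengths that the estimate uses, so they cannot show an error from wrong lengths or from the counting step.

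limma 3.58.1 (R 4.3.3) was run on log2(RPKM + 1) for the 10868 genes with a mean of at least 1 RPKM, with all 5 groups in 1 fit, empirical Bayes with a trend (prior degrees of freedom 7.12, residual 10), and Benjamini-Hochberg adjustment over all genes tested at 0.05. The script was tested on simulated data. Mouse numbers are unique, so nothing pairs the mice. Alternatives were a pseudocount of 0.1, no filter, a mean of at least 5 RPKM, median-of-ratios and quantile scaling, robust empirical Bayes, the compared groups alone, the first column of each mouse, a GC correction (lowess span 0.3; GC known for 98.1% of genes tested), the column code as a term (16 columns without the 24 hour group, mouse correlation 0.283, where A3278 is the only link to the controls), and each mouse left out.

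Values are listed in the order A3258, A3252, A3276 (12 hours), A3254, A3277, A3262 (24 hours), A3278, A3281, A3264 (72 hours), A3345, A3283, A3269 (7 days) and A3250, A3259, A3280 (controls). Named were members past the test whose 3 values did not overlap the controls, with full values for the 12 largest, a fixed list of well-known members, and up to 4 genes per neighbouring list with the smallest F test p. Members, lists and rules were chosen with earlier results of these data known. Exon overlaps and shared 36-base stretches come from GENCODE vM1 (mm9). Protein sequences were not used here, and 2 genes, though counted, are not reported here.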

Additional observations from a re-analysis of the deposited data

Results flagged for a closer look

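Successive times of induction differed from each other for 7 members from 12 to 24 hours, 10 from 24 to 72 hours and 37 from 72 hours to 7 days (limma, the difference itself tested). For 3 members, consecutive steps passed the test in opposite directions. The steps were 3.30 from 24 to 72 hours and −2.60 from 72 hours to 7 days for Dcxr, 1.47 and −1.05 for Gss, and −1.01 and 3.02 for Gsta1. Txndc14 was higher than control at 72 hours and lower at 7 days, with a step of −1.30 between them. In each of these 7 steps the 3 mice of the later time did not overlap the 3 of the earlier time. Gsta1 at 72 hours was 1.05, 1.55 and 0 RPKM, near the lower end of what the table resolves.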

How the results depend on the processing

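At 7 days the count of 51 members moved by over 1.5 times only with the column code as a term, to 29, and leaving out a mouse gave 42 to 51. At 72 hours the count of 12 was 6 with the column code and 7 to 18 without 1 mouse. At 12 hours the count of 10 was 3 under median-of-ratios scaling, 3 under quantile normalization, 2 with the GC correction, 0 with the column code, 24 with the compared groups alone and 1 to 17 without 1 mouse. At 24 hours the count of 19 was 12 without the filter, 12 with the GC correction and 1 to 23 without 1 mouse. The 7 members from 12 to 24 hours became 2 with the compared groups alone, 12 with the GC correction and 2 to 11 without 1 mouse. The 10 from 24 to 72 hours became 17 under quantile normalization, 17 with the GC correction and 5 with the compared groups alone, and were 7 to 14 without 1 mouse. The 37 from 72 hours to 7 days (33 to 39 without 1 mouse) and the 57 of the F test (54 to 58) stayed within 1.5 times in every alternative run for them. Direction changed for Sod3 at 12 hours (0.197) and Txnl4a at 7 days (0.033) with the column code and for Txndc1 at 7 days (−0.150) with the GC correction; the cause was not tested. Of the 92 calls against control, 28 held in every alternative: 5 of 12 at 72 hours (Dcxr, Gsr, Gss, Nqo1 and Txndc14), 23 of 51 at 7 days, 0 of 10 at 12 hours and 0 of 19 at 24 hours. The column code fit gives no value at 24 hours, and depth limits members near 1 RPKM most. Calls over all genes were counted for the main fit only, so a gain or loss of calls here cannot be read as particular to the members.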

Other observations

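Members were also grouped by where their proteins act, a grouping chosen after their values were seen and so given as counts only. Members that act in more than 1 place were each assigned to 1, with Prdx5 and Gstk1 placed in mitochondria, and another assignment would change the counts. All 6 members assigned to mitochondria (Sod2, Prdx3, Prdx5, Txn2, Txnrd2 and Gstk1) were lower at 7 days, with differences of −1.11 to −2.20 and a median of −1.30. None of the 6 passed the test at 72 hours, where the median was −0.14, beside 6.39% of all genes higher and 5.22% lower. Of 15 tested members of the secretory route or the outside of the cell, 9 were higher and 1 lower at 7 days, with a median of 0.66. Gpx5, which passed the filter only through its 7 day values, was among the 9. At 72 hours 2 of the 15 were higher, beside 6.39% of all genes. Of the 46 other tested members, 16 were higher and 19 lower at 7 days. The microsomal transferases Mgst1 (1.70) and Mgst3 (−2.64) were counted with these 46 and not with the secretory route. Among all genes tested 26.7% were higher and 28.2% lower at 7 days. Heart muscle markers were lower and fibroblast and macrophage markers higher in the same 7 day mice, and their part in these counts was not tested.

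Repeat columns of the same mouse differed by a median of 0.152 to 0.315 on the log2 scale over the 67 tested members, while the range over the 3 mice of a group had a median of 0.252 in controls and up to 0.522 at 24 hours.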
